A study of Homo sapiens with 12 samples.

Results

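The lysosomal gene module examined here held 37 genes of the 28125 genes tested, taken by name: 4 lysosomal membrane proteins, 9 proteases, 6 glycosidases, 4 lipid-handling proteins and 14 genes of the vacuolar proton pump (V-ATPase). All 37 had 1 row in the deposited array table. Gene expression had been measured in SKM1, an established human myeloid leukaemia cell line, in 4 groups of 3 arrays. The groups were cells given APR-246 and 5-azacytidine together (APR-AZA), 5-azacytidine alone (AZA), APR-246 alone (APR), and untreated cells (NT). Each drug was used at its IC50, its midpoint inhibitory dose, RNA was taken at 18 h, and all groups came from this 1 cell line. 5-Azacytidine resembles cytidine, enters newly made RNA and DNA, and depletes DNA methyltransferases. APR-246 is converted in solution to a compound that reacts with cysteine thiols, among them those of mutant p53 and glutathione. The doses themselves are not stated in the labels.

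Lysosomes are acidic compartments in which proteases, glycosidases and lipases break down proteins, sugars and lipids. The V-ATPase pumps protons into the lumen with a membrane sector, V0, and a cytosolic sector, V1, that hydrolyses ATP. Many lysosomal genes share a promoter element built around the letters CACGTG, which is bound by TFEB, TFE3 and MITF, factors that are held in the cytosol while the kinase mTORC1 is active. In myeloid cells, lysosomal proteases also process antigens and the serine proteases of granules.

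Values are RMA signals on the log2 scale, so that a difference of 1 is a doubling, and a gene was called when its limma p-value, adjusted by Benjamini-Hochberg over all 28125 genes, was under 0.05. RMA sets the arrays to a common distribution, so each change is relative to that of other genes, and the median change of all genes was -0.00 in AZA minus NT. Array medians ran from 4.69 to 4.78, and arrays of 1 group correlated at 0.994 to 0.996 over all rows. Of the myeloid markers looked up, 4 were measured, and their mean log2 signal ran from 7.89 to 8.21 across arrays, against 3.68 to 3.99 for the 4 T cell markers. It ran from 3.36 to 3.55 for 3 erythroid and from 4.55 to 4.83 for 3 B cell markers. For 4 fibroblast and epithelial markers it was higher, at 6.09 to 6.65. Of these 4 myeloid genes, 2 rose and 1 fell in both APR-AZA minus NT and AZA minus NT: the transcription factor SPI1 was 1.46-fold and 1.44-fold higher, the aminopeptidase ANPEP 1.39-fold and 1.46-fold higher, and the transcription factor CEBPA 1.41-fold and 1.47-fold lower (adjusted p at most 0.0133). Of all genes, 22.3% were called in APR-AZA minus NT and 20.9% in AZA minus NT. The part of these myeloid genes in the lysosomal changes was not tested. The monocyte marker CD14 lay at 3.37 to 3.46 in the group means, below the all-gene median of 4.75. The epithelial marker EPCAM lay at 9.33 in APR-AZA, 9.45 in AZA, 9.62 in APR and 9.67 in NT. It was 1.26-fold lower in APR-AZA than in NT (limma adjusted p = 0.0216). KRT19, another epithelial marker, was 1.71-fold higher in APR-AZA than in NT (adjusted p = 0.0238). Neither EPCAM nor KRT19 was called in AZA minus NT. The 37 genes themselves were mostly bright, and 28 of them lay above the 90th percentile of all genes by mean signal. NPC2, a cholesterol-binding protein of the lumen, was the dimmest at a mean of 4.46.

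With AZA alone, 14 of the 37 genes rose, 3 fell and 20 were not called. The background over all genes was 9.79% higher and 11.1% lower, or 20.9% in either direction, against 45.9% of the 37. That background includes many dim genes, while the 37 were mostly bright and were chosen with earlier results of these data known. The difference in share was not tested. The median log2 change of the 37 was 0.10, and that of all genes -0.00. The increases were led by PSAP (2.55-fold), NEU1 (1.98-fold), CTSD (1.82-fold), MCOLN1 (1.70-fold), CD63 (1.53-fold) and ATP6AP1 (1.46-fold), and the genes that fell were CTSC (1.64-fold lower), ATP6V1F (1.39-fold lower) and CTSA (1.21-fold lower). All 3 AZA arrays lay above all 3 NT arrays for 17 of the 37 and below them for 5, where 15.1% and 17% of all genes did so. LAMP1, LAMP2, TPP1 and LIPA, which encode familiar lysosomal proteins, were not called. Nothing in the labels tells whether a group's arrays are separate cultures, so the p-values cover only array-to-array spread, which can be technical.

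**Figure D1:**
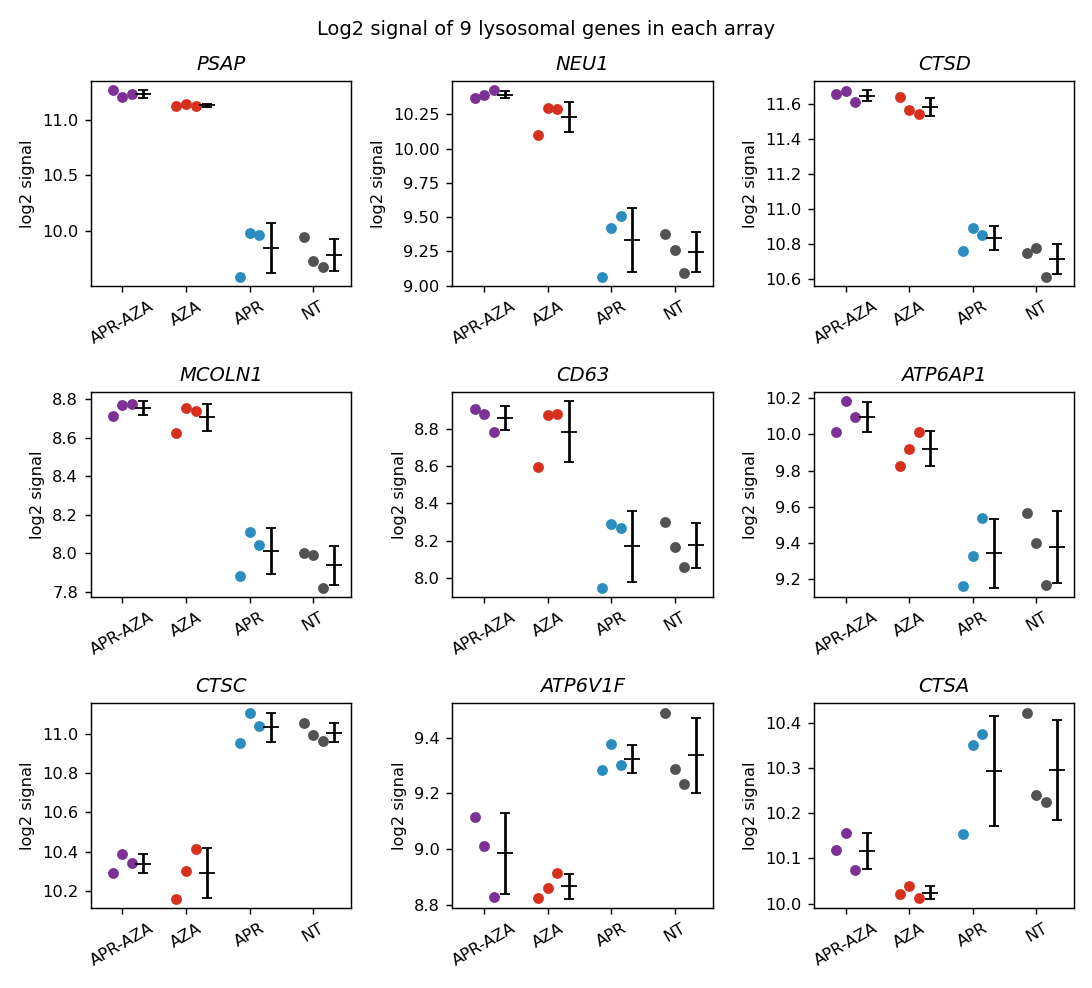
Log2 signal (y axis, scale set per panel and not starting at 0) of the 6 genes with the largest increases and the 3 that fell with AZA, in each of the 3 arrays of APR-AZA, AZA, APR and NT; each point is an array, and the bar beside each group is its mean ± SD (n = 3). In all 9 panels the AZA arrays lay wholly to one side of the NT arrays. The genes were picked by their call in that comparison, so this separation adds no support.

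PSAP encodes prosaposin, the precursor of the saposins that help lysosomal enzymes reach their sphingolipid substrates. Its log2 signal was 11.27, 11.20 and 11.23 in APR-AZA, 11.12, 11.14 and 11.12 in AZA, 9.59, 9.98 and 9.96 in APR, and 9.94, 9.72 and 9.67 in NT. The 6 arrays with AZA stood more than a doubling above the 6 without, with no overlap. The share of all genes with such a separation of 6 arrays from 6 was not counted, here or for the genes below. Against NT the log2 change was 1.46 ± 0.11 (SE, n = 3 per group, limma adjusted p = 5.13e-07) in APR-AZA and 1.35 ± 0.11 (adjusted p = 1.08e-06) in AZA, which put PSAP at the 99.1 percentile of all genes by change in AZA. NEU1, the lysosomal sialidase that trims sialic acid from glycoproteins and gangliosides, had signals of 10.37, 10.39 and 10.43 in APR-AZA, 10.10, 10.30 and 10.29 in AZA, 9.07, 9.42 and 9.51 in APR, and 9.38, 9.26 and 9.09 in NT. The groups with and without AZA again did not overlap. Its log2 change against NT was 1.15 ± 0.11 (SE, adjusted p = 7.58e-06) in APR-AZA and 0.98 ± 0.11 (adjusted p = 3.3e-05) in AZA.

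NEU1 works in a complex with cathepsin A, encoded by CTSA, which shields it from breakdown, and with the beta-galactosidase GLB1. These 3 genes did not move alike. CTSA had signals of 10.12, 10.16 and 10.08 in APR-AZA, 10.02, 10.04 and 10.01 in AZA, 10.15, 10.35 and 10.38 in APR, and 10.42, 10.24 and 10.22 in NT. The AZA arrays lay below all NT arrays, by -0.27 ± 0.08 (log2, SE, adjusted p = 0.0336), and in APR-AZA the difference was -0.18 ± 0.08 and was not called (adjusted p = 0.166). The call of CTSA with AZA was lost in 7 of 15 alternative fits. Those were without AZA replicate 1 (adjusted p = 0.0801), 2 (0.0728) or 3 (0.0866) and without NT replicate 1 (0.135). It was also lost with only the compared groups fitted (0.072), with quantile renormalization (0.0756) and with a block for replicate number (0.0663). GLB1 stood higher, by 0.36 ± 0.08 in APR-AZA (log2, SE, adjusted p = 0.00647) and 0.28 ± 0.08 in AZA (adjusted p = 0.0284). The second lost its call without AZA replicate 1 (0.111) or 3 (0.0651) and without NT replicate 2 (0.119) or 3 (0.0807). It also lost it with only the compared groups fitted (0.0853).

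Among the proteases, CTSD rose most. It encodes cathepsin D, an aspartic protease, and had signals of 11.65, 11.67 and 11.61 in APR-AZA, 11.64, 11.57 and 11.54 in AZA, 10.76, 10.89 and 10.85 in APR, and 10.75, 10.78 and 10.62 in NT. The arrays with AZA did not overlap those without. The change against NT was 0.93 ± 0.07 in APR-AZA (log2, SE, adjusted p = 1.01e-06) and 0.87 ± 0.07 in AZA (adjusted p = 2.14e-06). The cysteine proteases CTSS, CTSB and CTSZ rose too. With AZA they were 1.42-fold, 1.40-fold and 1.30-fold higher than in NT, and with APR-AZA 1.41-fold, 1.48-fold and 1.35-fold (adjusted p between 0.000321 and 0.0131). CTSZ lost its call in AZA minus NT without AZA replicate 2 (0.056) or NT replicate 3 (0.0596).

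CTSC went the other way. It encodes cathepsin C, the dipeptidyl peptidase that activates the serine proteases of neutrophil granules. Its signals were 10.29, 10.39 and 10.34 in APR-AZA, 10.16, 10.30 and 10.42 in AZA, 10.95, 11.10 and 11.04 in APR, and 11.06, 10.99 and 10.96 in NT. Every array with AZA lay below every array without it, and the change was -0.66 ± 0.08 in APR-AZA (log2, SE, adjusted p = 4.57e-05) and -0.71 ± 0.08 in AZA (adjusted p = 2.87e-05). Of the 5 primary granule genes set beside it, 4 (80%) fell in both comparisons and 0 rose. Of all genes, 11.9% fell with APR-AZA and 11.1% with AZA. The elastase ELANE and the protease PRTN3, which are both activated by cathepsin C, were 7.21-fold and 6.07-fold lower in APR-AZA and 7.58-fold and 5.74-fold lower in AZA. AZU1 and MPO, encoding azurocidin and myeloperoxidase, were 4.05-fold and 2.54-fold lower in APR-AZA and 4.29-fold and 2.63-fold lower in AZA. The mean log2 signal of these 5 genes was 8.41 to 8.52 in APR-AZA, 8.33 to 8.59 in AZA, 10.05 to 10.16 in APR and 10.17 to 10.29 in NT, with CTSG near 4.6 in all groups. Their part in the fall of CTSC was not tested.

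The remaining proteases were not called with AZA alone. TPP1, a tripeptidyl peptidase, differed by 0.01 (log2, 95% interval -0.13 to 0.15), and CTSL, an endopeptidase, by -0.05 (-0.28 to 0.18). CTSH, an aminopeptidase of low signal, had the largest SE of the 37 (0.19 on the log2 scale), with 5.64, 5.40 and 5.21 in APR-AZA, 5.14, 5.45 and 5.85 in AZA, 5.83, 5.69 and 6.18 in APR, and 5.71, 5.96 and 6.27 in NT. Its AZA and NT arrays overlapped. The changes of -0.56 ± 0.19 in APR-AZA and -0.50 ± 0.19 in AZA (log2, SE) missed the threshold at adjusted p = 0.0546 and 0.0937. The first passed it in 8 of 15 alternative fits, among them those without APR-AZA replicate 1 (0.0446) or NT replicate 1 (0.0314). The second passed it in 1 of 15, without AZA replicate 3 (0.0231).

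Of the 4 membrane proteins, MCOLN1 and CD63 rose and LAMP1 and LAMP2 were not called. MCOLN1 encodes TRPML1, a channel that releases calcium from lysosomes, and had signals of 8.71, 8.77 and 8.78 in APR-AZA, 8.62, 8.75 and 8.74 in AZA, 7.88, 8.11 and 8.04 in APR, and 8.0, 7.99 and 7.82 in NT. No array with AZA overlapped one without. The change was 0.82 ± 0.08 in APR-AZA (log2, SE, adjusted p = 1.04e-05) and 0.77 ± 0.08 in AZA (adjusted p = 1.93e-05). CD63, a tetraspanin of late endosomes and lysosomes, had 8.90, 8.88 and 8.78 in APR-AZA, 8.60, 8.87 and 8.88 in AZA, 7.95, 8.29 and 8.27 in APR, and 8.30, 8.16 and 8.06 in NT, again without overlap between arrays with and without AZA. LAMP1 and LAMP2, the heavily glycosylated proteins that line the lysosomal membrane, differed between AZA and NT by 0.09 (log2, 95% interval -0.14 to 0.32) and -0.03 (-0.23 to 0.16). An increase of LAMP1 or LAMP2 as large as that of MCOLN1 lay outside these intervals.

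Among the glycosidases besides NEU1 and GLB1, GLA, which removes terminal galactose from glycolipids, was 1.28-fold higher in APR-AZA (adjusted p = 0.0193) and 1.23-fold higher in AZA (adjusted p = 0.046). This small difference lost its call in AZA minus NT without any 1 of the 6 arrays (adjusted p from 0.0554 without AZA replicate 1 to 0.162 without NT replicate 3, with 0.128 and 0.122 without AZA replicates 2 and 3 and 0.0565 and 0.0788 without NT replicates 1 and 2). The call in AZA minus NT was also lost with only the compared groups fitted (0.0503), with median centring (0.0685) and with an unmoderated variance (0.0656). In APR-AZA minus NT it was lost without APR-AZA replicate 2 (0.0785) or 3 (0.0648) or NT replicate 3 (0.082). GAA, the glycogen-degrading acid glucosidase, had AZA arrays at 8.12, 8.10 and 8.21, all below the NT arrays at 8.31, 8.43 and 8.32, but the difference of -0.21 ± 0.09 was not called (adjusted p = 0.118). GUSB, the beta-glucuronidase, and HEXA, a hexosaminidase subunit, differed by 0.04 ± 0.10 and -0.02 ± 0.14 and were not called. Of the lipid-handling genes other than PSAP, NPC2 rose with AZA by 0.49 ± 0.12 (adjusted p = 0.00995), from a signal close to the median of all genes. In APR-AZA its change of 0.34 ± 0.12 was not called (adjusted p = 0.0622), but was without APR-AZA replicate 1 (0.0287) or NT replicate 2 (0.023). The acid lipase LIPA and the acid ceramidase ASAH1 stood at 0.05 ± 0.10 and -0.16 ± 0.10 with AZA and were not called.

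**Figure D2:**
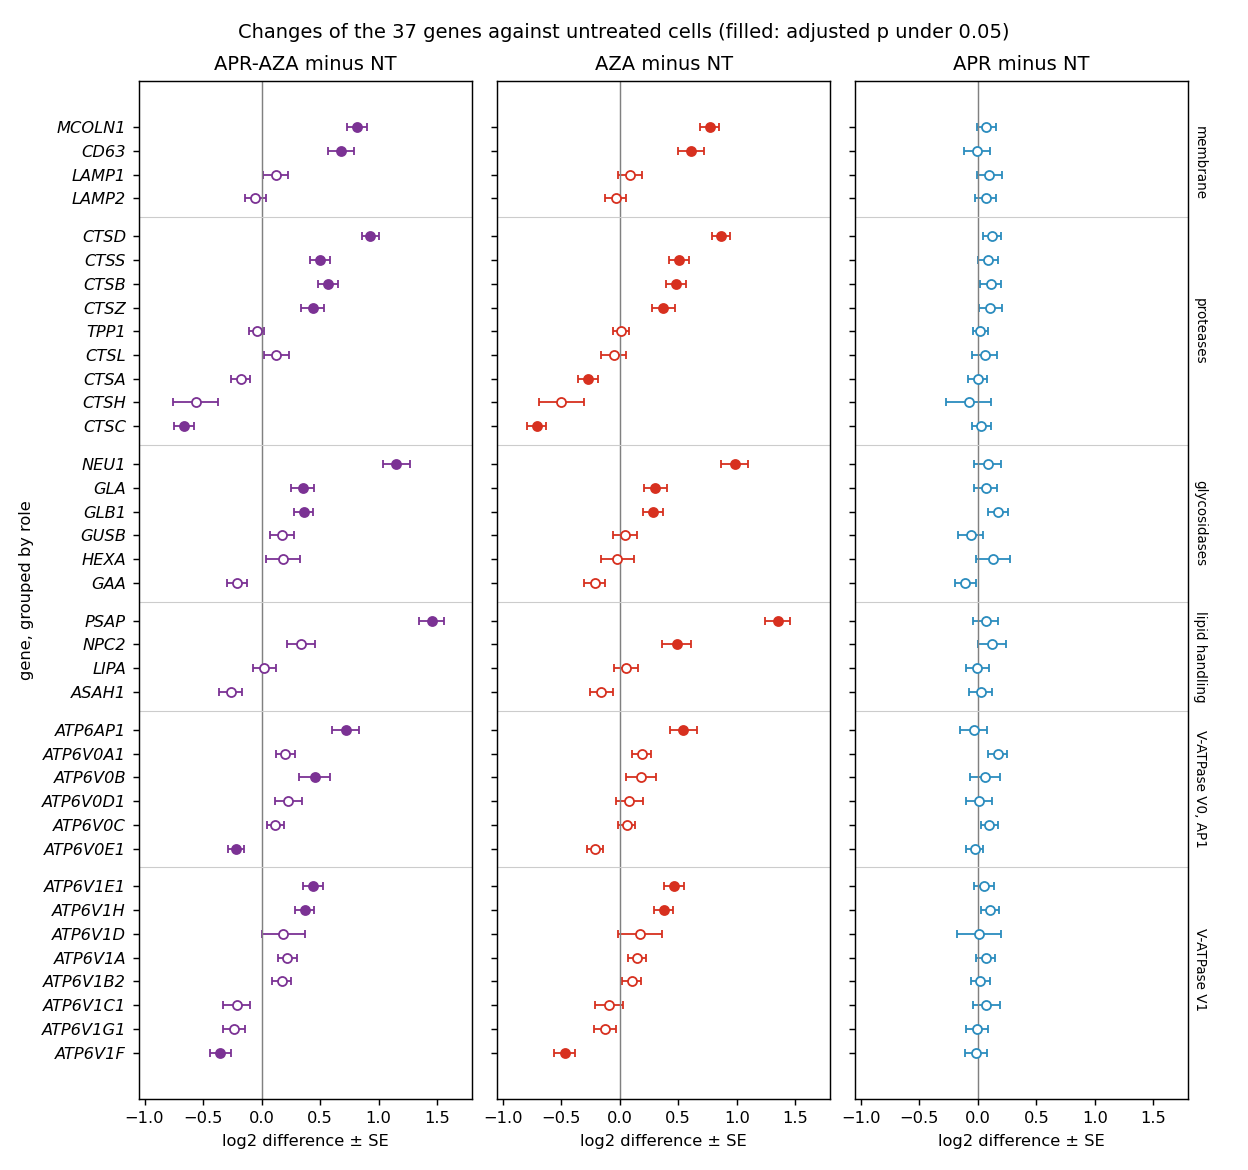
Log2 difference from NT (x axis) of the 37 genes, grouped by role and ordered within a role by the change in AZA, for APR-AZA, AZA and APR; points are limma estimates, bars the moderated SE, and filled points were called. Filled points lie on both sides of 0 in the APR-AZA and AZA panels, 14 to the right and 3 to the left in each, and the APR panel has 0 filled points.

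Of the 14 V-ATPase genes, with AZA 3 rose, 1 fell and 10 were not called. The share called was 28.6%, where 20.9% of all genes were called, 9.79% higher and 11.1% lower. Among the other 23 genes 11 rose and 2 fell, a difference that was not tested. With APR-AZA 4 of the 14 rose, 2 fell and 8 were not called (42.9%), where 22.3% of all genes were called, 10.4% higher and 11.9% lower. The largest change was in ATP6AP1, an accessory subunit needed for assembly of the pump. It had signals of 10.01, 10.18 and 10.09 in APR-AZA, 9.83, 9.92 and 10.02 in AZA, 9.16, 9.33 and 9.54 in APR, and 9.56, 9.40 and 9.17 in NT. The arrays with AZA lay above those without, by 0.72 ± 0.12 in APR-AZA (log2, SE, adjusted p = 0.000456) and 0.54 ± 0.12 in AZA (adjusted p = 0.00391) against NT.

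Of the 8 genes of the cytosolic V1 sector, 2 rose and 1 fell (37.5% called) in both APR-AZA minus NT and AZA minus NT. The shares of all genes called were 22.3% and 20.9%, with 11.9% and 11.1% lower. ATP6V1E1, part of the peripheral stalks, was 1.36-fold higher in APR-AZA and 1.38-fold higher in AZA (adjusted p = 0.00196 and 0.00142), and ATP6V1H, a subunit that regulates the pump's activity, was 1.29-fold and 1.30-fold higher (0.00409 and 0.00384). ATP6V1F, of the central stalk, had 9.11, 9.01 and 8.83 in APR-AZA, 8.83, 8.86 and 8.91 in AZA, 9.28, 9.38 and 9.30 in APR, and 9.49, 9.29 and 9.23 in NT. All 6 arrays with AZA were below the 6 without. The change was -0.35 ± 0.09 in APR-AZA (adjusted p = 0.0131) and -0.47 ± 0.09 in AZA (adjusted p = 0.00203), the first losing its call without APR-AZA replicate 3 (0.0677) or NT replicate 1 (0.0595). The catalytic subunits ATP6V1A and ATP6V1B2 stood at 0.15 ± 0.08 and 0.10 ± 0.08 in AZA and were not called, nor were ATP6V1C1, ATP6V1D and ATP6V1G1, at -0.09 ± 0.12, 0.18 ± 0.19 and -0.12 ± 0.09.

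In the membrane sector V0, the proton-carrying ring subunit ATP6V0C differed by 0.12 in APR-AZA (log2, 95% interval -0.04 to 0.28) and by 0.06 in AZA (-0.10 to 0.22). ATP6V0B, a second ring subunit, was called in APR-AZA alone, with signals of 10.24, 10.29 and 10.19 there, 9.88, 10.01 and 10.03 in AZA, 9.57, 9.97 and 10.02 in APR, and 10.04, 9.72 and 9.61 in NT. Its change against NT was 0.45 ± 0.13 in APR-AZA (adjusted p = 0.0215), which was not called without APR-AZA replicate 1 (0.0557) or 2 (0.0705) or NT replicate 2 (0.0752) or 3 (0.0974), and 0.18 ± 0.13 in AZA (0.413). The difference of these, APR-AZA minus AZA, was 0.27 ± 0.13 and was not called (adjusted p = 0.986). The call of ATP6V0B in APR-AZA minus NT was also lost with an unmoderated variance (0.0582). ATP6V0E1, a small subunit with a bright probe set, was lower by -0.22 ± 0.07 in APR-AZA (adjusted p = 0.0406) and by -0.21 ± 0.07 in AZA (0.0518). The call in APR-AZA was lost without any 1 of the APR-AZA arrays (0.0501, 0.0735 and 0.167 for replicates 1 to 3) or of the NT arrays (0.102, 0.0735 and 0.0851). It was also lost with only the compared groups fitted (0.1), with quantile renormalization (0.0926) and with a block for replicate number (0.0728). Without APR-AZA replicate 3, which also cost ATP6V1F its call, the count of genes lower in APR-AZA minus NT was 1 in place of 3. ATP6V0A1 and ATP6V0D1 were not called, at 0.19 ± 0.08 and 0.08 ± 0.11 in AZA.

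A V-ATPase list beyond the 37 gave isoforms of the same subunits together with accessory, assembly and pump-binding proteins. Of its 16 measured genes, 3 rose and 3 fell with APR-AZA, and 4 rose and 2 fell with AZA. That is 37.5% called in each, where 22.3% of all genes were called with APR-AZA and 20.9% with AZA. TCIRG1, the a3 form of the large membrane subunit found in osteoclasts and immune cells, was 1.47-fold higher in APR-AZA and 1.52-fold higher in AZA (adjusted p = 0.00107 and 0.000561). The a2 form ATP6V0A2 was 1.44-fold lower in APR-AZA, at 7.37, 7.41 and 7.35, against 7.82, 7.75 and 8.15 in NT (adjusted p = 0.00149). ATP6V1E2, a second form of subunit E, was 1.44-fold higher in AZA (adjusted p = 0.00117), with group means of 6.22 in APR-AZA, 6.41 in AZA and 5.89 in NT. NCOA7, whose protein binds the pump, was 2.15-fold and 2.13-fold higher in APR-AZA and AZA (3.2e-05 and 3.91e-05).

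Because many lysosomal promoters carry the CACGTG element, the promoters of the module were read for it. RefSeq promoter windows of assembly GRCh38.p14, each 300 bases with 250 before the gene start and 50 after it, were at hand for 26 of the 37 genes, and PSAP is not among these. Searched on both strands, which read alike for these palindromes, CACGTG was in at least 1 window of 10 of the 26 genes (38.5%), against 8.77% of the 27305 genes with windows. The longer TCACGTGA, which contains it, was in 6 of 26 (23.1%, against 1.18%). These windows are shown for 3 genes that rose with AZA (MCOLN1, NEU1 and CTSD), 2 that were not called (LAMP1 and GAA) and 1 that fell (CTSA), 5′ to 3′ in the direction of the gene, with each CACGTG in capitals. They lie at chr19:7522374-7522673, plus strand (MCOLN1), chr6:31862772-31863071, minus strand (NEU1), chr11:1763878-1764177, minus strand (CTSD), chr13:113296989-113297288, plus strand (LAMP1), chr17:80101331-80101630, plus strand (GAA) and chr20:45891085-45891384, plus strand (CTSA).
MCOLN1: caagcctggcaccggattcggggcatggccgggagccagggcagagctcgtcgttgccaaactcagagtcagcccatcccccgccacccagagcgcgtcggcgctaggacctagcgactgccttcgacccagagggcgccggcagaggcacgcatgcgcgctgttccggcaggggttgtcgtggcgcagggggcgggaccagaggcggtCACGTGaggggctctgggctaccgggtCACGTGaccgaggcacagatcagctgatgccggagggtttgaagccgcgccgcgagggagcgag
NEU1: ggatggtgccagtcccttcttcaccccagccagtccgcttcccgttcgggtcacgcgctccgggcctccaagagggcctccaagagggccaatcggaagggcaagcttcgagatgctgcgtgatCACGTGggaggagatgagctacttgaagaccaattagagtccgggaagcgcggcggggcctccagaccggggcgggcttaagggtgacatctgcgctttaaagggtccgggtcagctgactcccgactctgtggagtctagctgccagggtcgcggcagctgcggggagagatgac
CTSD: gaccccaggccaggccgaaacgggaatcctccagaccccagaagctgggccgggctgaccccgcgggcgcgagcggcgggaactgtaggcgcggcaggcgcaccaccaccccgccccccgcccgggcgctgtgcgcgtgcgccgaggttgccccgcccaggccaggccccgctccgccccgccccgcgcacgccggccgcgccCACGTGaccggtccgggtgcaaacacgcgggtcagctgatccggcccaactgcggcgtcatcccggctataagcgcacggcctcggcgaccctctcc
LAMP1: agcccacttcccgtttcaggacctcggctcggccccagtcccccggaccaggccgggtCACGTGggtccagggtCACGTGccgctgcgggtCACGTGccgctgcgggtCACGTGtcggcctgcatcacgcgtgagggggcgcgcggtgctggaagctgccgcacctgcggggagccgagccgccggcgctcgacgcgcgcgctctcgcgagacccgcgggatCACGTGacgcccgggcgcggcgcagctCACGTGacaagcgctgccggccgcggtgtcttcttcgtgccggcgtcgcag
GAA: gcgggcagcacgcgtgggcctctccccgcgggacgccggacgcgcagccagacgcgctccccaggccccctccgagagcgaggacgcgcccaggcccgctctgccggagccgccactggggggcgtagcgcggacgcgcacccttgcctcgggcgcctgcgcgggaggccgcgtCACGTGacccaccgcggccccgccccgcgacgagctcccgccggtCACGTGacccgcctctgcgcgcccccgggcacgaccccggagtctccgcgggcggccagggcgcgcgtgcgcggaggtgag
CTSA: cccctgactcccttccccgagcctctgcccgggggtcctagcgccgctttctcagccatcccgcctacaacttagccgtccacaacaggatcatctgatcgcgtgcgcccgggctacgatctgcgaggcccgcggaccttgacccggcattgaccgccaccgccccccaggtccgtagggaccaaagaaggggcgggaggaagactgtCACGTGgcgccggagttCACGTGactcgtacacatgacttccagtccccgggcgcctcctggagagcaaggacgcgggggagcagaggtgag

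The element was found on both sides of the response. Of the 26 genes, 4 of the 10 that rose with AZA had CACGTG, 1 of the 3 that fell and 5 of the 13 that were not called. LAMP1 had 6 copies and GAA 2, and neither was called, while CTSD and NEU1 had 1 copy each and MCOLN1 2. CD63 had it in 1 of its 8 windows. A match is a description of these letters and not of a factor's binding. Whether the calls went with the element or with its number of copies was not tested. Genes without a window, PSAP among them, could not be read for the element.

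**Figure D3:**
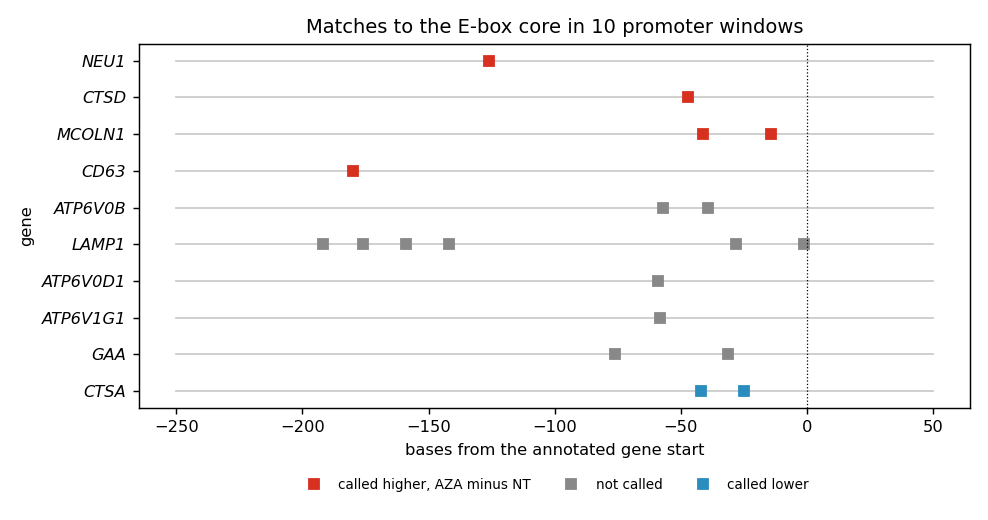
Positions of CACGTG (squares, first base of each match) in bases from the annotated gene start (x axis) in the promoter windows of the 10 genes that hold it, coloured by the call in AZA minus NT. Genes that rose, fell and were not called all carry matches, with LAMP1 holding 6.

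APR alone moved none of the 37 past the threshold. With limma 0 were called, where 0.00356% of all genes were (1 of 28125), and 0 of the 37 had an unadjusted p under 0.05. Log2 changes ran from -0.11 to 0.17, with a median of 0.06 against -0.00 for all genes, and the 95% intervals of the 37 reached from -0.50 to 0.44. The APR and NT arrays overlapped for all 37, where 3.44% of all genes had all 3 APR arrays above the NT arrays and 4.04% had them below. The 2 largest changes were those of GLB1, at 10.21, 10.29 and 10.17 in APR and 10.18, 9.95 and 10.02 in NT (log2 change 0.17 ± 0.08, SE, adjusted p = 1), and of ATP6V0A1, at 9.39, 9.57 and 9.39 in APR and 9.24, 9.21 and 9.40 in NT (0.17 ± 0.08, adjusted p = 1).

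Adding APR to AZA also called 0 of the 37, and 0 of all 28125 genes (0%). Differences APR-AZA minus AZA ran from -0.15 (NPC2) to 0.27 (ATP6V0B) with a median of 0.05, 0 of 37 had an unadjusted p under 0.05, and the 95% intervals reached from -0.48 to 0.55. All 3 APR-AZA arrays lay above the AZA arrays for 7 genes (CTSA, CTSB, CTSL, NEU1, PSAP, ATP6V0B and ATP6V0D1) and below them for 1 (TPP1), where 5.8% and 5.77% of all genes did so. Non-additivity, which sets the joint change against the single-drug changes added up, was called for 0 of the 37 and 0% of all genes, with 0 of 37 at an unadjusted p under 0.05, values of -0.26 to 0.21 and 95% intervals from -0.63 to 0.61.

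The effect of 5-azacytidine could be read a second time in cells that all received APR, from APR-AZA minus APR, which shares no array with AZA minus NT, although both use the spread of all 12 arrays. Of the 37 genes 11 were higher and 2 lower there, where 9.45% and 11.2% of all genes were (20.7% in either direction). Those 13 were all among the 17 called in AZA minus NT and went the same way, so 76.5% of the 17 and all of the 13 were shared, while 81.1% of the genes called in AZA minus NT over the whole table were called again. PSAP was 1.39 ± 0.11, NEU1 1.07 ± 0.11, CTSD 0.81 ± 0.07 and CTSC -0.69 ± 0.08 in APR-AZA minus APR (log2, SE). The 4 not called again were CTSA, GLA, GLB1 and NPC2, at -0.18 ± 0.08, 0.28 ± 0.10, 0.19 ± 0.08 and 0.22 ± 0.12. Of the 13, ATP6V1F lost its call without APR-AZA replicate 3 (adjusted p = 0.0888) or APR replicate 2 (0.067). ATP6V1H lost it without APR-AZA replicate 1 (0.12) or 3 (0.0818) or APR replicate 1 (0.13) or 3 (0.0632), and CTSZ without APR-AZA replicate 1 (0.103) or 2 (0.0693) or APR replicate 1 (0.117). ATP6V1H and CTSZ also lost it with only the compared groups fitted (0.0764 and 0.0519) and with median centring (0.0779 and 0.0508). A block for replicate number cost ATP6V1H its call too (0.0636). Across the 37 genes, which are not independent of each other, the differences had the same sign for 34 (91.9%) and correlated at r = 0.966 (rho = 0.942). Over all genes 71% had the same sign, with r = 0.905 and rho = 0.694.

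**Figure D4:**
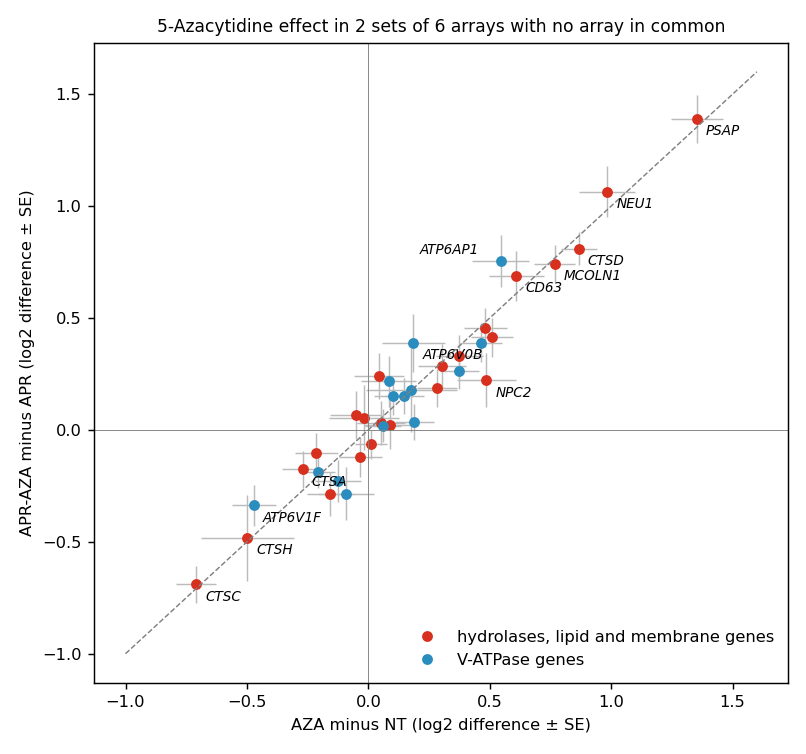
Log2 difference AZA minus NT (x axis) against APR-AZA minus APR (y axis) for the 37 genes, with moderated SE bars and the line of equality dashed; the sets of 6 arrays have none in common. The genes lie close to the line, from CTSC at -0.71 and -0.69 to PSAP at 1.35 and 1.39.

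Other lysosomal genes were read from lists drawn up beside the 37. Over all genes tested, 10.4% rose and 11.9% fell with APR-AZA, and 9.79% rose and 11.1% fell with AZA. Differences of the lists from these shares were not tested. Of 27 further enzymes, 11 rose and 2 fell with APR-AZA (48.1% called, against 22.3% of all genes). With AZA 8 rose and 2 fell (37%, against 20.9%). DNASE2, which degrades DNA in lysosomes, was 6.67-fold higher in APR-AZA and 6.65-fold higher in AZA, at 8.31, 8.35 and 8.11 in APR-AZA, 8.23, 8.23 and 8.30 in AZA, 5.59, 5.49 and 5.51 in APR, and 5.59, 5.44 and 5.54 in NT (adjusted p = 2.07e-10 and 2.24e-10). This exceeded the change of PSAP, the gene of the 37 that rose most. The cysteine protease CTSO was 2.17-fold higher in AZA (1.45e-05), with group means of 6.41 in APR-AZA, 6.56 in AZA and 5.44 in NT. SIAE, a sialic acid esterase, was 2.26-fold lower in APR-AZA and 2.10-fold lower in AZA, and GM2A, the activator that presents GM2 ganglioside to the hexosaminidase of HEXA, was 2.14-fold lower in APR-AZA (4.55e-06, 1.13e-05 and 5.59e-05). Group means of GM2A were 7.68 in APR-AZA, 7.74 in AZA and 8.78 in NT.

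Of 20 further membrane proteins, 6 rose and 4 fell in each comparison. That is 50% called, where 22.3% of all genes were called with APR-AZA and 20.9% with AZA. The channel MCOLN2, a paralogue of MCOLN1, was 4.56-fold lower in APR-AZA and 4.51-fold lower in AZA, with 6.11, 6.02 and 5.81 in APR-AZA, 6.15, 6.21 and 5.63 in AZA, 8.01, 8.04 and 7.97 in APR, and 8.04, 8.11 and 8.36 in NT (adjusted p = 1.72e-07 and 2.06e-07). It thus went against MCOLN1. SLC11A1, a metal transporter of phagocyte lysosomes, was 2.20-fold and 2.06-fold higher in APR-AZA and AZA, CD68, a macrophage lysosomal glycoprotein, 1.77-fold higher in APR-AZA, and NPC1, the membrane partner of NPC2 in cholesterol export, 1.75-fold higher in AZA (4.98e-06, 1.19e-05, 3.74e-05 and 5.06e-06).

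Delivery to lysosomes uses a mannose 6-phosphate tag. Of 9 genes listed for delivery, tagging or activation of the enzymes, 3 rose and 4 fell with APR-AZA (77.8% called, against 22.3% of all genes). With AZA 2 rose and 4 fell (66.7%, against 20.9%). IGF2R, the large mannose 6-phosphate receptor, was 2.05-fold higher in APR-AZA and 1.98-fold higher in AZA (adjusted p = 9.85e-07 and 1.77e-06). GNPTAB, which encodes the enzyme that makes the tag, was 1.68-fold lower in APR-AZA and 1.48-fold lower in AZA (0.000106 and 0.00104). SUMF1, which activates sulfatases, was 1.39-fold higher in APR-AZA, and the sorting adaptor GGA2 1.39-fold lower in AZA (0.00243 and 0.00289). Group means in APR-AZA, AZA and NT were 7.75, 7.65 and 7.28 for SUMF1 and 8.63, 8.51 and 8.99 for GGA2.

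Of 19 regulators, 5 rose and 4 fell with APR-AZA (47.4% called, against 22.3% of all genes). With AZA 6 rose and 5 fell (57.9%, against 20.9%). TFE3, which binds the CACGTG element, was 2.87-fold higher in APR-AZA and 2.62-fold higher in AZA, with 9.07, 8.94 and 9.09 in APR-AZA, 8.84, 8.90 and 8.96 in AZA, 7.55, 7.95 and 7.98 in APR, and 7.66, 7.59 and 7.29 in NT (adjusted p = 1.27e-06 and 3.2e-06). Its relatives TFEB and MITF were dim, at group means of at most 5.28 and 4.45, and were not called. TFEC, the remaining member of this family, was 1.35-fold higher in APR-AZA and 1.36-fold higher in AZA (0.00356 and 0.0033). ZKSCAN3, described as a repressor of lysosomal and autophagy genes, was 1.67-fold lower in APR-AZA and 1.81-fold lower in AZA (8.79e-06 and 2.63e-06). The GTPase RRAGC, which brings mTORC1 to the lysosome, was 1.62-fold and 1.55-fold higher in APR-AZA and AZA (0.000115 and 0.000301). The other Rag GTPases differed from it: RRAGB was 1.57-fold and 1.35-fold lower (0.00321 and 0.0406), RRAGD 1.37-fold and 1.24-fold lower (0.000676 and 0.00938), and RRAGA was not called (0.06 and 0.344). Protease inhibitors changed in 3 of 5 genes (60%) in each comparison, where 22.3% and 20.9% of all genes did with APR-AZA and AZA. CSTA, an inhibitor of cysteine cathepsins, was 1.92-fold and 2.06-fold higher, the serine protease inhibitor SERPINB1 1.58-fold and 1.63-fold higher, and the secreted cystatin CST3 1.33-fold and 1.32-fold lower in APR-AZA and AZA (adjusted p at most 0.0238).

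**Figure D5:**
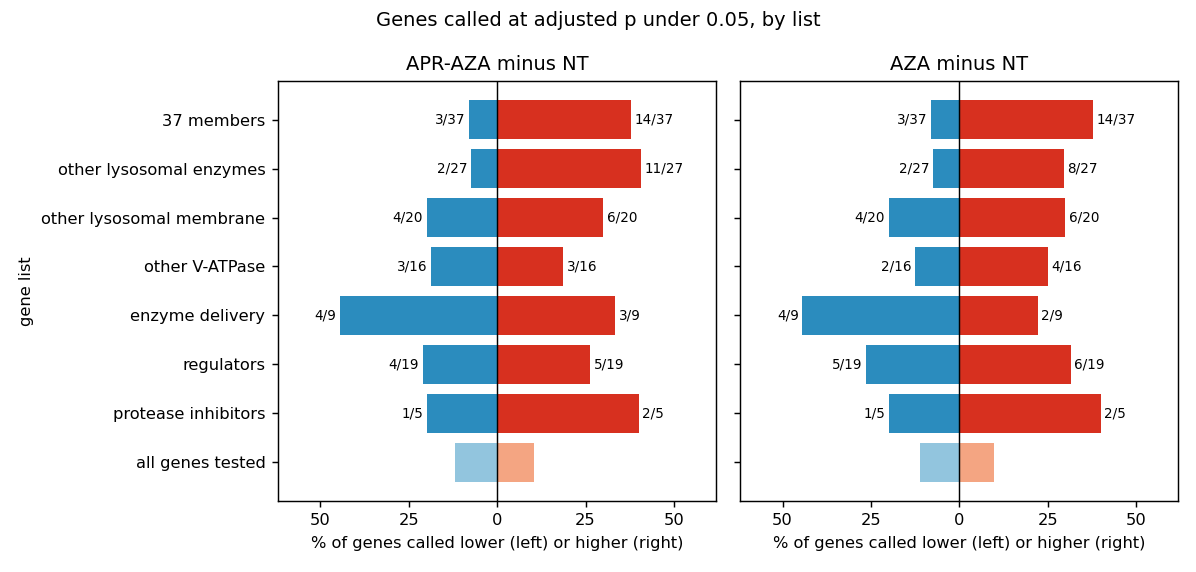
Share of genes called higher (right) and lower (left) in APR-AZA minus NT and AZA minus NT, as a percentage of the measured genes of each list (x axis), with counts beside the bars and all genes tested in the lowest bar. Every list has bars on both sides, as have all genes tested, and the 37 genes have 14 higher and 3 lower in both panels.

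Some genes of monocyte and macrophage maturation changed in the same groups. Of 7 measured, 2 rose and 1 fell (42.9% called) in both APR-AZA minus NT and AZA minus NT, and 0 were called in APR minus NT. The shares of all genes called in these comparisons were 22.3%, 20.9% and 0.00356%. The integrin ITGAX was 16.8-fold higher in APR-AZA and 14.4-fold higher in AZA, MPEG1, a pore-forming protein of phagocytes, 2.0-fold and 2.22-fold higher, and LYZ, lysozyme, 1.38-fold and 1.39-fold lower (adjusted p at most 0.000481). The mean log2 signal of the 7 was 8.27 to 8.37 in APR-AZA, 8.29 to 8.39 in AZA, 7.75 to 7.78 in APR and 7.64 to 7.69 in NT, but ITGAX stood far above the rest in its change. The median log2 change of the 7 was 0.14 in APR-AZA minus NT and 0.18 in AZA minus NT. The other 4 were not called, among them CSF1R, the receptor of a macrophage growth factor, at -0.23 ± 0.09 in APR-AZA and -0.19 ± 0.09 in AZA, and CD14 and CD163 stayed near 3.4 to 3.8. The part of maturation in the lysosomal changes was not tested, and in bulk RNA a change in the share of cells of 1 state and a change in RNA per cell cannot be told apart.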

How the data were processed

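Total RNA (250 ng) from SKM1 cells was labelled with an Affymetrix whole-transcript kit and hybridised to 12 arrays, per the labels' protocols. The log2 values deposited by the authors were made with RMA, and Partek is named too, with no version, per the submitters' processing notes. The chip definition and genome build are not stated there. The table held 29413 rows, of which 28129 have 1 symbol, 0 several and 1284 none in GEO's platform annotation. Of the 4 symbols on more than 1 row the brightest was kept, which left 28125 genes with no filter on signal. No array depth exists, so the number of arrays limits the precision.

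A limma 3.58.1 model in R 4.3.3 (lmFit, eBayes) gave each of the 4 groups a mean, with no covariate and 8 residual degrees of freedom, and p-values were adjusted by Benjamini-Hochberg over all genes. SEs are moderated and intervals are 95%. On simulated data for AZA minus NT (28125 genes, 200 changed) the fit called 92.0% of log2 changes of 1 and 48.0% of changes of 0.5, with 5 false calls. The simulation changed far fewer genes than the 5878 called in AZA minus NT, and the adjusted threshold depends on the share of changed genes. These percentages therefore do not give the detection rate in the data. The members and gene lists were chosen with earlier results of these data known. Named were the members called with AZA with the 6 largest increases and 6 largest decreases, the 2 largest changes with APR, and, in each comparison of AZA or APR-AZA with NT, the 3 largest called changes of each of the 6 other lysosomal lists. Values in every array for CTSH, ATP6V0B and GAA, and all remarks on marker genes, TFEB, MITF, TFEC, RRAGA, RRAGB and RRAGD, were added after their values were seen. The alternatives left out each array or the dimmest 30% of genes, renormalized by quantiles or centred on medians, changed the variance model (trended and robust, or unmoderated), weighted arrays, blocked on replicate number, fitted only the compared groups, or averaged rows of a symbol.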

Additional observations from a re-analysis of the deposited data

How the results depend on the processing

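Of 285 recomputed counts and medians of the 37 genes, 279 stayed within 1.5 times the reported count or within 1 SD between arrays of the median, and 0 reversed. This total includes the counts of 0 in APR minus NT, APR-AZA minus AZA and non-additivity, which stayed at 0 throughout. The SD was 0.073, most of the median change of 0.10 in AZA minus NT. Averaging rows of a symbol left the values of the 37 as they were, since each had 1 row. With a trended and robust variance the genes called lower numbered 5 in APR-AZA minus NT and 4 in APR-AZA minus APR. When 1 array at a time was left out, the genes called lower ranged from 1 to 3 in APR-AZA minus NT (1 without APR-AZA replicate 3) and from 1 to 3 in APR-AZA minus APR (1 without APR-AZA replicate 3 or APR replicate 2). The median change in APR-AZA minus APR ranged from 0.0795 (without APR replicate 1) to 0.17, against 0.15. Genes called higher ranged from 11 to 13 in AZA minus NT, 12 to 14 in APR-AZA minus NT and 9 to 12 in APR-AZA minus APR.

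Of the 17 genes called in AZA minus NT, 13 kept their call under all alternatives, as did 13 of 17 in APR-AZA minus NT and 10 of 13 in APR-AZA minus APR, where ATP6V1F, ATP6V1H and CTSZ lost it in some. A call was gained in some alternative by 2, 5 and 5 further genes, and in APR minus NT, APR-AZA minus AZA and non-additivity by 0. The replicate numbers did not pair the arrays: deviations of same-numbered arrays correlated at -0.253 to 0.142, over 0.1 in 3 of 18 pairs. Arrays that correlated best with their own number were 1 of 12. With the replicate block 14 genes were higher and 2 lower in AZA minus NT, 14 and 3 in APR-AZA minus NT, and 10 and 2 in APR-AZA minus APR. The causes of these shifts were not tested.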
